A study of Mus musculus with 6 samples.

Results

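The genes of fatty acid oxidation were followed in lungs of mice with Tspo (wild type, WT) and without it (knockout, KO). They are the 32 genes of mitochondrial and peroxisomal beta-oxidation, of the carnitine shuttle that feeds it, and of the thioesterase, uncoupling proteins and kinase that accompany it. Each was taken by its gene symbol from the RefSeq transcripts of the count table, and where a gene had several transcripts the 1 with the most counts was kept. All 32 were found, out of 23473 genes, and all 32 had enough counts to be tested. Etfb was the only member with a further transcript, which held 99.8% of the counts of the kept one.

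Whole lungs of C57BL/6 mice aged 6 to 8 weeks were profiled by RNA-seq, with RNA of 3 littermates combined in each of 3 WT and 3 KO pools. The KO mice carry a deletion of Tspo exons 2 and 3 in all tissues, made with Cre recombinase under the sperm-specific protamine promoter, and lungs of both genotypes were taken under sodium pentobarbital after bleeding. Because each library is a pool, the spread given here is that between pools and not between single mice, and the sex of the mice is not given in the sources used here.

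Fatty acid oxidation shortens acyl chains in the mitochondrial matrix and in peroxisomes. Long chains enter mitochondria as carnitine esters, are cut by rounds of dehydrogenation, hydration, a further dehydrogenation and thiolysis, and pass electrons to the respiratory chain through the electron transfer flavoprotein. Peroxisomes begin the oxidation of very long and branched chains. In the lung, alveolar type 2 cells and alveolar macrophages handle much of the lipid, because surfactant is made and cleared there. TSPO lies in the outer mitochondrial membrane, where long-chain acyl groups are handed to carnitine, so the comparison asks whether its loss goes with other transcript levels of these enzymes.

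Libraries held 9617086 to 11942318 counts over the 23473 genes, and the 32 members took 0.213% to 0.254% of the counts tested in each. Levels are given as CPM, the count of a gene relative to the total of its library, with TMM scaling for differences in composition. Tspo, the deleted gene, had 156, 153 and 153 CPM in the WT pools against 21.6, 21.7 and 19.7 CPM in KO. Its log2 fold change, always KO relative to WT, was −2.87 with a standard error of 0.10 (edgeR quasi-likelihood, adjusted p = 1.42e-07). WT pool 3 had 11.4% of its counts in the ribosomal RNA precursor Rn45s, against 0.224% to 0.427% elsewhere, and WT pool 2 stood apart in markers of other tissues, given below. Markers of the labelled tissue were present, and the 10 alveolar type 2 markers summed to 28832 to 36682 CPM.

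None of the members passed the test of KO against WT. Of 14802 genes tested, 0.00676% were called, which was Tspo alone, and the count among the 32 members was 0 by edgeR's quasi-likelihood test. It was also 0 in limma-voom, in DESeq2 and in the exact test of edgeR. At an unadjusted p under 0.05 there was 1 member, Cpt1b, or 3.12%, beside 1.88% of all genes. No member had WT and KO pools that did not overlap, beside 5.46% of all genes. Without WT pool 1 there were 4 such members, Cpt1b, Cpt2, Acadl and Ehhadh, beside 12.8% of all genes in that setting. Without KO pool 2 there were 3 (Acad10, Acad11 and Decr2, beside 10.3%), without KO pool 3 there were 2 (Cpt1b and Crot, beside 20.1%), and without KO pool 1 there was 1 (Acaa2, beside 12.5%).
In bulk tissue, fewer cells of a type and less RNA per cell cannot be told apart.
On the log2 scale, fitted fold changes were small except for Cpt1b (−1.02) and Pdk4 (−0.57). Over the 32 members they had a median of −0.05, beside 0.0022 over all genes. On average in KO, 26 members were lower and 6 higher (81.2% lower, beside 49.2% of all genes). With library totals alone, which moved the median of all genes to 0.04, 17 were lower and 15 higher (53.1% lower, beside 37.4% of all genes). The split was 27 against 5 without WT pool 1, 18 against 14 without WT pool 2 and without WT pool 3, 24 against 8 without KO pool 1, 26 against 6 without KO pool 2 and 17 against 15 without KO pool 3. DESeq2, limma-voom and edgeR's exact test gave 26 against 6. For 30 of the 32 members the 95% confidence interval lay within a 2-fold change in either direction (93.8%, beside 93.2% of all genes), and for 28 within 1.5-fold (87.5%, beside 75.5%). The intervals of Cpt1b and Pdk4 reached past 2-fold, and those of Ucp3 and Acaa1b past 1.5-fold.

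**Figure D1:**
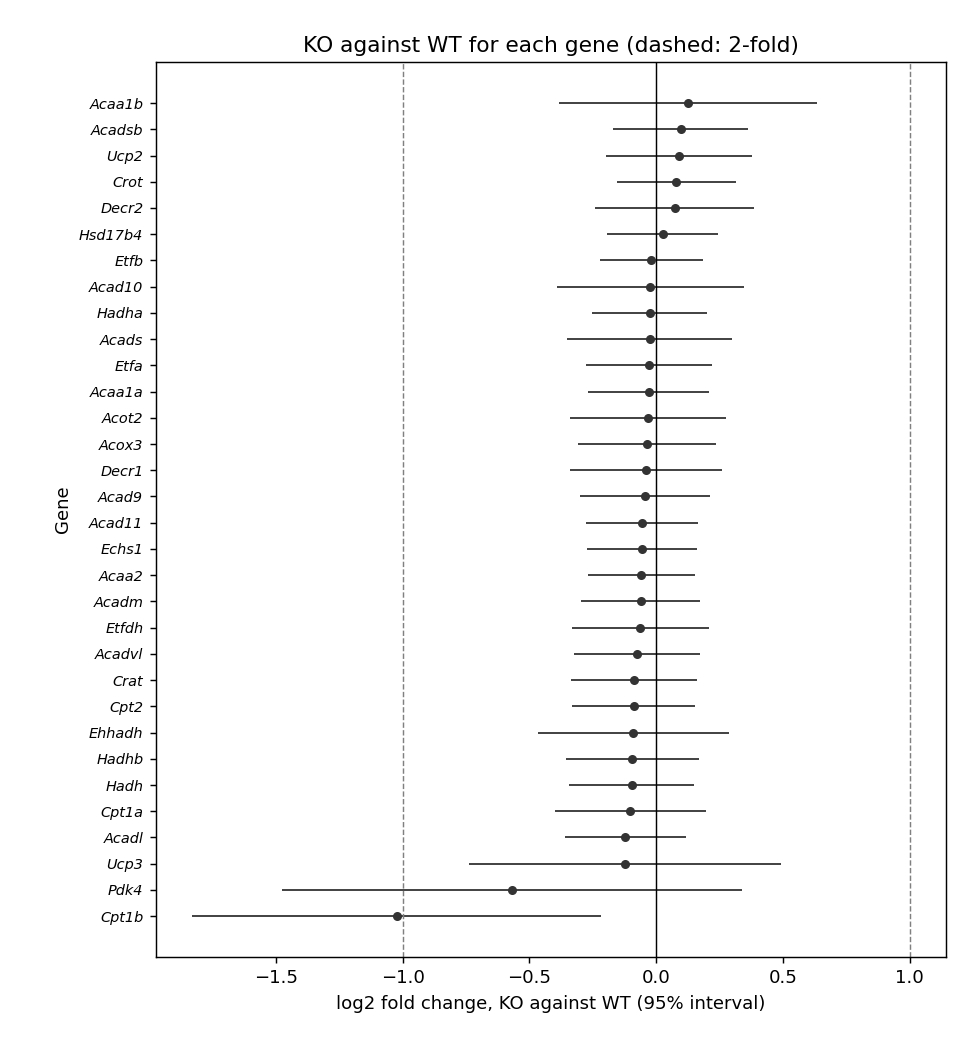
Log2 fold change of each of the 32 genes, KO against WT, from the edgeR fit with 3 pools per genotype. Points are the fitted values, bars the 95% confidence intervals, and dashed lines mark a 2-fold change. The bars of Cpt1b (−1.83 to −0.22) and Pdk4 (−1.47 to 0.34) are the 2 that reach past it.

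The levels of the members spanned a wide range. To compare genes, CPM were divided by transcript length, taken from the GENCODE transcript that matches each RefSeq accession, and the result is given as CPM per kb. The order below depends on these lengths, and the annotation release used for counting is not given in the sources used here. In WT, 14 members lay above 30 CPM per kb, 9 between 10 and 30, and 9 under 10, and the highest, Ucp2, was 59.3 times the lowest, Ucp3. The library totals here hold 1 RefSeq entry per gene. With all RefSeq entries of each gene summed, the WT mean of Cpt1a was 109 CPM in place of 155 CPM. It was 176 CPM without haemoglobin and the 20 most abundant genes. The numbers of members on either side of these bounds therefore depend on the total used. Ucp2 was followed by Etfb, Acaa2 and Hadh, and the low end held Pdk4, Acaa1b, Ehhadh, Cpt1b, Acad10 and Ucp3. Of the 31 steps between neighbours in this order, 23 were smaller than the larger SD of the pair, and those neighbours did not differ beyond their spread. The 8 larger steps were Ucp2 to Etfb, Etfb to Acaa2, Acaa2 to Hadh, Cpt1a to Etfdh, Acadsb to Decr1, Crot to Acad11, Acad11 to Acot2, and Acad9 to Decr2. No step from Hadh down to Cpt1a, or from Decr2 down to Ucp3, exceeded the larger SD.

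**Figure D2:**
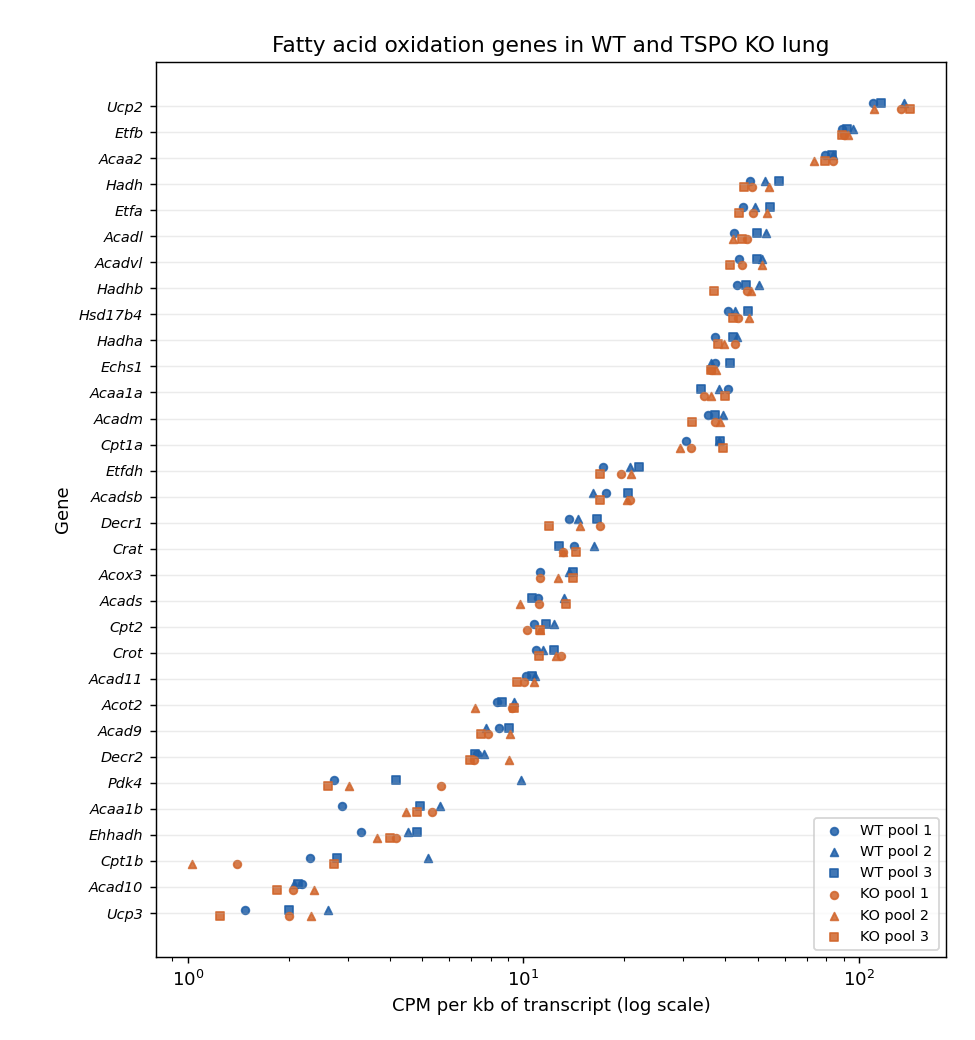
Level of each member in the 6 pools, as CPM per kb of transcript on a log axis, in the order of the WT mean. Blue symbols are WT pools and orange symbols KO pools, each pool with its own shape within a genotype. WT and KO symbols overlap for every gene, from Ucp2 (121 ± 13.5 CPM per kb in WT) down to Ucp3 (2.03 ± 0.57), and the widest scatter is that of Pdk4 and Cpt1b.

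The carnitine shuttle had 1 abundant and 1 scarce form of its first enzyme. Cpt1a, the widespread form of carnitine palmitoyltransferase 1, which controls the entry of long chains, lies on chromosome 19 from 3322334 to 3385733 (mm10, plus strand, 19 exons in the transcript used). It had 132, 165 and 166 CPM in the WT pools and 137, 126 and 170 CPM in the KO pools, and the genotypes overlapped fully. Its log2 fold change was −0.10 (standard error 0.14).
Cpt1b, the form of skeletal muscle, heart and brown fat, lies on chromosome 15 from 89416405 to 89425863 (minus strand, 19 exons). It had 6.69, 15.1 and 8.07 CPM in WT and 4.07, 2.98 and 7.87 CPM in KO. WT pool 2 was the highest by a factor of 1.87 over the next pool, and KO pool 3 lay above WT pool 1. Means were 9.94 ± 4.49 CPM for WT and 4.97 ± 2.57 CPM for KO (SD over 3 pools). The log2 fold change of −1.02 had a standard error of 0.37 (edgeR quasi-likelihood, unadjusted p = 0.0175, adjusted p = 0.9999). Without WT pool 2 the log2 fold change was −0.58, and without KO pool 3 it was −1.51. Per kb, Cpt1a was at 35.8 ± 4.55 and Cpt1b at 3.43 ± 1.55 in WT. Of the 50-base words of the Cpt1b transcript, 93.0% also occur in Gm44502, an annotated locus on the same strand that spans Cpt1b, so counts of Cpt1b and of that locus cannot be told apart here.
Cpt2, the inner-membrane enzyme that returns acyl groups to coenzyme A, had 25.6, 29.3 and 27.7 CPM in WT and 24.4, 26.6 and 26.7 CPM in KO (log2 fold change −0.09, standard error 0.11). Crat, which moves acetyl groups to carnitine, had 54.4, 62.1 and 48.9 CPM in WT and 50.3, 50.5 and 55.1 CPM in KO, with pools interleaved. Crot, its counterpart for medium chains in peroxisomes, was at 0.08 on the log2 scale (standard error 0.11).

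The promoter of Cpt1a is shown because the gene carries the entry step and is known to respond to the lipid-sensing PPAR receptors. Promoters (250 bases before to 50 after the RefSeq start, GRCm38.p6) were given for 26 of the 32 members and were searched on both strands for 5 motifs, whose matches stand in capitals here and in the promoters below. These were the nuclear receptor hexamer AGGTCA, the PPAR element (that hexamer repeated in the same direction with 1 free base between the copies), the site of estrogen-related receptors TCAAGGTCA, the NRF1 site (GCGCA followed by its reverse complement) and the GC box GGGCGG. The hexamer is contained in the 2 longer nuclear receptor motifs. The Cpt1a window is chr19:3323051-3323350, plus strand.
Cpt1a: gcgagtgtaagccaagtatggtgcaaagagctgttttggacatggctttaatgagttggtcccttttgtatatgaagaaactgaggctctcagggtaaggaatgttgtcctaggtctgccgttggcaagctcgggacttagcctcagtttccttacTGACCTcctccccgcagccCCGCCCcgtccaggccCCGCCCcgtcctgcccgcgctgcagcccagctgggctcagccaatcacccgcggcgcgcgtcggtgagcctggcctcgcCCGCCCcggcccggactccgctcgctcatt
It holds 1 hexamer, read as TGACCT from the plus strand at position −94, and 3 GC boxes. Over the 26 windows the hexamer was present in 5 (19.2%, beside 16.2% of 27025 promoters), in Acadm, Acadvl, Cpt1a, Echs1 and Ucp3. The GC box was present in 18 (69.2%, beside 35.6%). The only box of Hadha is also a box of Hadhb, because their windows overlap, so the same bases count for both. The 27025 promoters were not limited to genes expressed in lung. The NRF1 site was present in 2, Acad10 and Etfdh (7.69%, beside 0.962%), and the full PPAR element and the estrogen-related receptor site in 0 (beside 0.0481% and 0.407%). At shares this low, 0 is the likely count for any 26 windows, so it does not tell whether these genes have such sites. Only exact matches within the windows were searched.

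The acyl-CoA dehydrogenases, which open each round of oxidation for chains of different length, held close to the same level in both genotypes. Acadl, for long chains, had 81.2, 101 and 95.5 CPM in WT and 88.7, 80.6 and 86.1 CPM in KO. The highest KO pool lay between the WT pools, and the log2 fold change was −0.12 (standard error 0.11). Acadsb, for short branched chains from isoleucine, had 107, 98.4 and 125 CPM in WT and 126, 124 and 103 CPM in KO, and was 1 of the 6 members with a higher mean in KO (log2 fold change 0.10, standard error 0.12).
Acadvl, the very-long-chain enzyme of the inner membrane, and Acadm, for medium chains, had log2 fold changes of −0.08 and −0.06. Acads, for short chains, was at −0.03. Per kb, Acadl (48.3 ± 5.36), Acadvl (48.3 ± 3.90) and Acadm (37.3 ± 1.88) stood above Acadsb (18.1 ± 2.20) and Acads (11.6 ± 1.38) in WT. Before division by length, Acadsb, whose transcript has 6081 bases, had the highest WT mean of these, 110 ± 13.4 CPM, beside 105 ± 8.46 CPM for Acadvl. Acad9, which also helps to assemble respiratory complex I, was at 8.43 ± 0.68 CPM per kb, Acad11 at 10.6 ± 0.33 and Acad10 at 2.13 ± 0.06, and their log2 fold changes lay between −0.06 and −0.02. All 8 intervals of this family lay within a 1.5-fold change.

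Electrons from these enzymes pass to the electron transfer flavoprotein, whose subunits are encoded by Etfa and Etfb, and on to its membrane oxidoreductase, encoded by Etfdh. Etfb was the steadiest member, with 79.4, 85.4 and 82.1 CPM in WT and 80.8, 83.1 and 79.7 CPM in KO (log2 fold change −0.02, standard error 0.09). Its 6 pools spanned 0.10 on the log2 scale, beside a median of 0.34 over the members and 0.43 over all genes tested. Etfa had 62.7, 68.3 and 75.8 CPM in WT and 67.1, 74.1 and 61.1 CPM in KO. The count ratio of Etfa to Etfb within a pool was 0.84 ± 0.07 in WT and 0.83 ± 0.06 in KO (SD, n = 3 pools). Etfdh was at −0.06 on the log2 scale (standard error 0.12), and its level per kb, 20.01 ± 2.46 in WT, was lower than that of either subunit gene.

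The later steps of the mitochondrial round were also close between genotypes. Hadha and Hadhb encode the alpha and beta subunits of the mitochondrial trifunctional protein, which hydrates, dehydrogenates and cleaves long chains. Hadha had 150, 174 and 169 CPM in WT and 171, 159 and 153 CPM in KO, and Hadhb had 87.9, 103 and 93.7 CPM in WT and 94.3, 96.8 and 75.1 CPM in KO. Pool 3 of KO was the lowest pool for Hadhb, and the log2 fold changes were −0.03 (standard error 0.10) and −0.09 (standard error 0.12). The count ratio of Hadha to Hadhb was 1.73 ± 0.06 in WT and 1.84 ± 0.20 in KO (SD, n = 3 pools), with the highest value, 2.04, in KO pool 3.
Both genes start from the same stretch of chromosome 5 and run in opposite directions, Hadha on the minus strand from 30118304 to 30155162 and Hadhb on the plus strand from 30155248 to 30184593. Their RefSeq starts lie 273 bases apart and their promoter windows share 228 bases. The window of Hadhb, chr5:30155003-30155302 on the plus strand, is printed for that reason, and it has 4 GC boxes.
Hadhb: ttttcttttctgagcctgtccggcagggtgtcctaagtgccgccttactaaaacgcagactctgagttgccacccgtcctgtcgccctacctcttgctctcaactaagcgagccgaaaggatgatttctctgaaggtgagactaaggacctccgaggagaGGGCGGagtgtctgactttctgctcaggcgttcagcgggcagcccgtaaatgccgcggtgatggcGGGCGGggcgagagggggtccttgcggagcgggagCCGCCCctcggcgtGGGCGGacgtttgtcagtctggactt
Hadh, the hydroxyacyl-CoA dehydrogenase for shorter chains, had 84.6, 94.2 and 104 CPM in WT and 85.7, 96.7 and 81.5 CPM in KO (log2 fold change −0.10, standard error 0.11). Echs1, the short-chain enoyl-CoA hydratase, and Acaa2, the mitochondrial thiolase, had log2 fold changes of −0.06 each. Acaa2 was the third most abundant transcript of the group per kb, at 82.1 ± 2.30 in WT and 78.8 ± 4.98 in KO. Decr1, the mitochondrial reductase needed for unsaturated chains, was at −0.04 (standard error 0.14), and Decr2, its peroxisomal counterpart, at 0.07 (standard error 0.14).

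Peroxisomal enzymes did not pass the test either. Hsd17b4, the D-bifunctional protein for very long and branched chains, was the most abundant of them at 43.5 ± 3.08 CPM per kb in WT and 44.2 ± 2.38 in KO. Ehhadh, the L-bifunctional protein, was at 4.21 ± 0.82 and 3.95 ± 0.26, and Acox3, an oxidase of branched chains, at 13.0 ± 1.55 and 12.6 ± 1.42. The log2 fold changes were 0.03 for Hsd17b4, −0.09 for Ehhadh and −0.04 for Acox3.
Acaa1a and Acaa1b encode the peroxisomal thiolases and lie on chromosome 9, from 119339676 to 119350299 (plus strand) and from 119148023 to 119157093 (minus strand). Acaa1a had 71.5, 67.2 and 59.7 CPM in WT and 60.7, 63.7 and 70.2 CPM in KO. Acaa1b had 4.88, 9.52 and 8.31 CPM in WT and 9.06, 7.53 and 8.17 CPM in KO, and WT pool 1 was the pool that stood below the others. Acaa1b had the highest fitted log2 fold change of the members, 0.13 (standard error 0.23), which became −0.12 without WT pool 1 and 0.34 without WT pool 2. Acaa1a was at −0.03 (standard error 0.11), and the count ratio of Acaa1a to Acaa1b was 14.6 in WT pool 1 and 6.70 to 8.59 in the other pools.
These genes share sequence in part, compared here for single reads without their mates. Their coding sequences of 1272 bases differ at 44 positions (96.5% identical) and have an identical run of 327 bases, and of 1223 windows of the read length of 50 bases, 464 hold no difference. The 60 bases with the most differences, 11, are coding positions 259 to 318 counted from the start codon, shown here with the differing bases in capitals.
Acaa1a: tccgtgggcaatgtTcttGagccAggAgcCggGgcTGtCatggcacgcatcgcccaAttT
Acaa1b: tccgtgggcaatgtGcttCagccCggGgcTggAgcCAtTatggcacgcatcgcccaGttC
Reads from this stretch can be told apart, whereas 35.5% of the 50-base words of the Acaa1b transcript also occur in Acaa1a. How such reads were counted is not given in the sources used here, so the split between these genes is uncertain.

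Shared sequence touched other members too. Of the 32 transcripts, 13 had no 50-base word that occurs in another annotated gene on either strand, and 10 had more than 10% of such words. After Cpt1b these were Etfb (67.3%) with the overlapping locus Gm45233, Hadhb (62.9%) with the processed pseudogenes Gm13910 and Gm9108, Acaa1b (46.2%) and Acaa1a (35.1%). Acot2 (27.7%) shared words mainly with its paralogue Acot1, Acadvl (24.0%) with Dvl2 on the opposite strand, Acad10 (21.8%) with Acad12, Acad11 (14.8%) with Ackr4 and Acad9 (13.5%) with the antisense gene Gm43079.

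**Figure D3:**
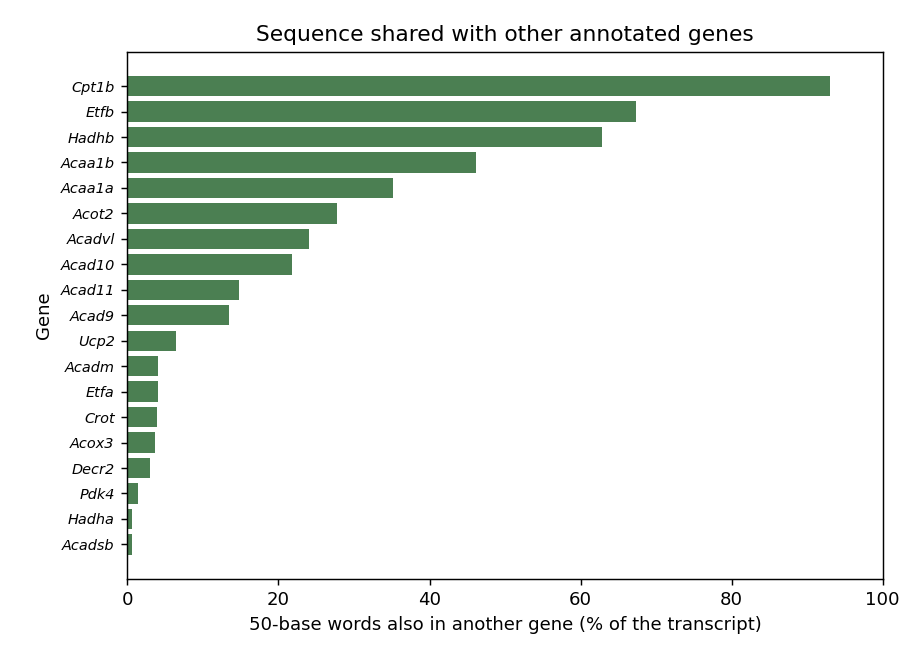
Share of each transcript's 50-base words that also occur in a transcript of another GENCODE gene on either strand, for the 19 members with any. Bars run from under 1% for Acadsb and Hadha to 93.0% for Cpt1b, and 10 exceed 10%.

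The uncoupling proteins and Pdk4 held the most abundant gene per kb, Ucp2, and the lowest, Ucp3. Ucp2, a mitochondrial carrier that is widespread in immune cells, had 438, 542 and 465 CPM in WT and 531, 442 and 565 CPM in KO. Each genotype had high and low pools, and the log2 fold change was 0.09 (standard error 0.13). Ucp3, the form of skeletal muscle and brown fat, lies 6904 bases upstream of Ucp2 on chromosome 7, and had 3.62, 6.40 and 4.91 CPM in WT and 4.90, 5.71 and 3.05 CPM in KO (log2 fold change −0.12, standard error 0.28). Acot2, a mitochondrial thioesterase that frees fatty acids from coenzyme A, was at −0.03 (standard error 0.14).
Pdk4, the kinase that switches off pyruvate dehydrogenase when fat is burned, had 9.50, 34.2 and 14.5 CPM in WT and 19.9, 10.5 and 9.15 CPM in KO. WT pool 2 was 1.72 times the next pool, and the other WT pools lay within the KO range. Means were 19.4 ± 13.1 CPM for WT and 13.2 ± 5.83 CPM for KO (SD over 3 pools). The log2 fold change of −0.57 had a standard error of 0.41 (edgeR quasi-likelihood, unadjusted p = 0.196, adjusted p = 0.9999). It was 0.15 without WT pool 2 and −0.99 without KO pool 1, and Pdk4 was at an unadjusted p under 0.05 without WT pool 1 and without KO pool 1.
The promoters of Pdk4 (chr6:5496229-5496528, minus strand) and Ucp3 (chr7:100472741-100473040, plus strand) are printed because these genes, with Cpt1b, varied most between pools. Pdk4 holds none of the 5 motifs, and Ucp3 holds the hexamer at positions −149 and −44.
Pdk4: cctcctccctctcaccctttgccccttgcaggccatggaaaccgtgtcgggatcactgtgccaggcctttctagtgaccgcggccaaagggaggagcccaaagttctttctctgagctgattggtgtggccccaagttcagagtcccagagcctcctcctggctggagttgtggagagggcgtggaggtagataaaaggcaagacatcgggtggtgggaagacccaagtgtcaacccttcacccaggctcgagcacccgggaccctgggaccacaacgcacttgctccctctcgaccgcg
Ucp3: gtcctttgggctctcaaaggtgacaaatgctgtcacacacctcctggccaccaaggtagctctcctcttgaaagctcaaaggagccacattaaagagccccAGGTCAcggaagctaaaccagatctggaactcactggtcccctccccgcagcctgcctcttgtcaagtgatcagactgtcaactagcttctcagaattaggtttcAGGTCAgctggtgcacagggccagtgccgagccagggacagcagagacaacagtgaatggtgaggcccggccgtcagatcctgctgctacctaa

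Cpt1b, Pdk4 and Ucp3 had the widest ranges of all members, at 2.16, 1.85 and 0.96 on the log2 scale, and each was highest in WT pool 2. Ucp3 was only 1.12 times its next pool there, and its lowest pool was KO pool 3. Acaa1b, with a range of 0.90, was also highest in WT pool 2. Markers of other tissues moved with that pool. Ucp1, the uncoupling protein that defines brown fat, had 378 counts in WT pool 2 and 0 and 4 in the other WT pools, against 1, 2 and 3 in KO. The 8 brown fat markers summed to 78.9 CPM in WT pool 2 and 20.7 and 22.1 CPM in the other WT pools, beside 19.8 to 22.3 CPM in KO, of which Ucp1 made up 32.7 CPM in WT pool 2. Cidea (16.2 CPM, beside 0.65 to 1.52 CPM elsewhere) and Cox8b (13.2 CPM, beside 3.64 to 5.08 CPM) were also highest there. So were Cox7a1 (6.75 CPM, beside 3.98 to 5.27 CPM) and Otop1 (2.08 CPM, beside 0 to 0.25 CPM). Elovl3 had 2 counts in WT pool 2 and 0 elsewhere, Dio2 was lowest in WT pool 2 (2.16 CPM, beside 3.31 to 4.80 CPM), and Ppargc1a was at 5.71 CPM there and at 5.79 to 6.87 CPM elsewhere. The 10 skeletal muscle markers summed to 268 CPM in WT pool 2, 23.5 and 24.8 CPM in the other WT pools and 20.9 to 25.2 CPM in KO, and the myosin gene Myh4 was at 0 in the other WT pools and had 0, 1 and 0 counts in KO. The 8 white fat markers summed to 330 CPM in WT pool 2, 186 and 169 CPM in the other WT pools and 97.9 to 191 CPM in KO. They went both ways. Pck1 was at 65.1 CPM in WT pool 2 and at 3.35 and 8.07 CPM in the other WT pools. Adipoq (22.4 CPM), Plin1 (18.1 CPM), Fabp4 (89.1 CPM) and Cidec (37.0 CPM) were also highest in WT pool 2. Lep and Retn were lower there (0.43 and 2.77 CPM) than in the other WT pools, and Cfd (94.9 CPM) was below WT pool 1 (95.6 CPM). The 10 heart muscle markers ran the other way, at 349 CPM in WT pool 2, 560 and 702 CPM in the other WT pools and 522 to 584 CPM in KO. The part of these tissues in the values of Cpt1b, Pdk4 and Ucp3 was not tested. Without WT pool 2 the log2 fold changes were −0.58 for Cpt1b, 0.15 for Pdk4 and 0.12 for Ucp3, and no member was at an unadjusted p under 0.05.

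**Figure D4:**
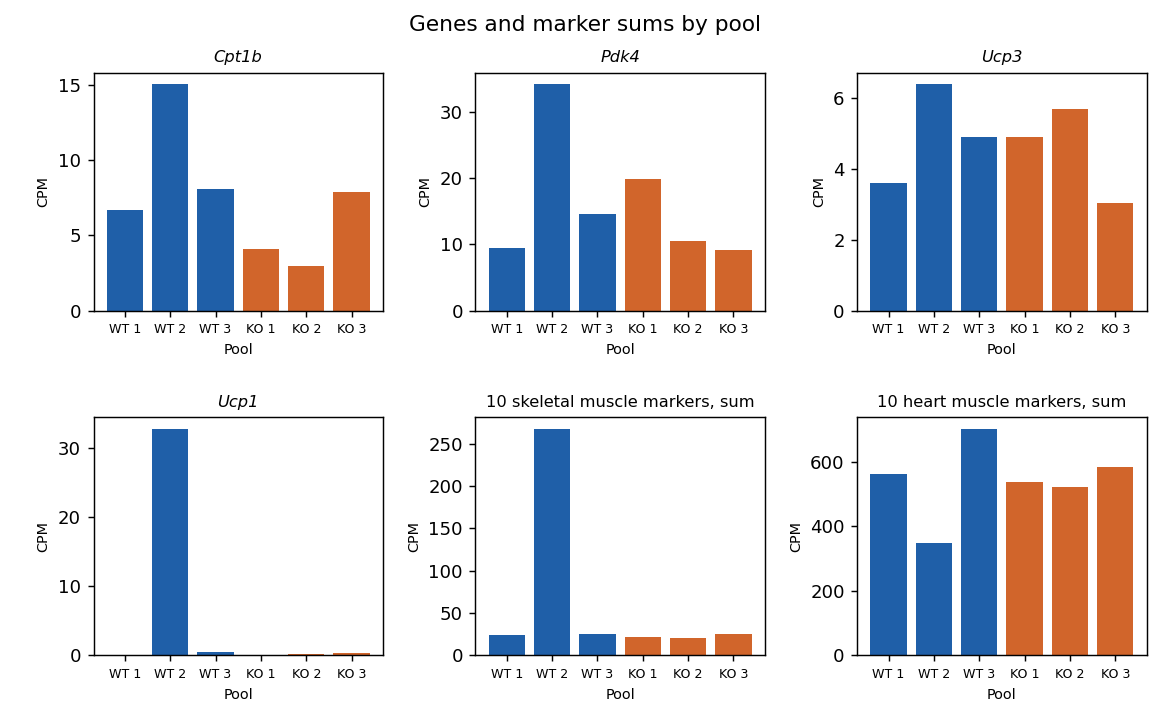
CPM in each of the 6 pools for Cpt1b, Pdk4, Ucp3 and Ucp1, and the summed CPM of 10 skeletal muscle and 10 heart muscle markers. Bars start at 0, blue is WT and orange is KO. WT pool 2 is the highest bar for the 4 genes and for the skeletal muscle sum (268 CPM), and the lowest for the heart sum (349 CPM).

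The pools differed in the group as a whole by small amounts, with overlap between genotypes. The median deviation of the members from their own mean was −0.08, 0.10 and 0.07 on the log2 scale in the WT pools and −0.01, 0.01 and −0.07 in the KO pools, beside values between −0.0013 and 0.0049 over all genes. WT pool 1 and KO pool 3 were the low ones, with 5 and 10 of the 32 members above their mean, and WT pools 2 and 3 the high ones, with 25 and 26. WT pool 2 was the highest pool for 14 members and KO pool 3 the lowest for 13. The alveolar type 2 markers summed to 28832, 29934 and 32417 CPM in the WT pools and 36258, 36682 and 32228 CPM in the KO pools. Most of each sum was Sftpc, with 17835, 17669 and 19547 CPM in WT and 23095, 23250 and 19626 CPM in KO. Sftpc was highest in KO pool 2, Sftpa1, Sftpd and Lamp3 in KO pool 1, Etv5 in WT pool 2, and the remaining markers in KO pool 3. All 10 were higher on average in KO, and 0 were called. The 9 alveolar macrophage markers with an entry summed to 789, 757 and 857 CPM in the WT pools and 947, 919 and 679 CPM in the KO pools. Of these, 7 were higher and 2 lower on average in KO. The part of either cell type in these deviations was not tested.

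Other genes of the pathway were taken from lists of 117 symbols, of which 104 were tested, 52 higher and 52 lower on average in KO, with 0 that passed and a median log2 fold change of 0.0017. At an unadjusted p under 0.05 there were 3 of the 104, Plin4, Fabp4 and Klf15, beside 1.88% of all genes. Groups did not overlap for 5 of the 104, 1 higher and 4 lower in KO, beside 5.46% of all genes. These were Slc25a14, which was higher, and Plin4, Acsl1, Esrrg and Sirt5. Plin4, which coats lipid droplets in fat cells, had 19.6, 21.0 and 22.7 CPM in WT and 10.4, 17.3 and 14.5 CPM in KO, without overlap (log2 fold change −0.58, standard error 0.18). Fabp4, a fatty acid binding protein of fat cells, capillaries and macrophages, had 37.3, 89.1 and 41.3 CPM in WT and 19.96, 41.7 and 24.3 CPM in KO, highest in WT pool 2 (log2 fold change −0.96, standard error 0.33). Klf15, a transcription factor induced by glucocorticoids and fasting, had 44.7, 54.2 and 47.5 CPM in WT and 83.5, 62.3 and 53.3 CPM in KO, overlapping in the last of these pools (log2 fold change 0.44, standard error 0.16).
Of the 21 tested genes of uptake, activation and transport, 8 were higher and 13 lower on average in KO. After Fabp4, the acyl-CoA synthetase Acsl1 was at −0.24 (standard error 0.12), with pools of 61.8, 74.4 and 56.6 CPM in WT and 51.7, 56.4 and 55.2 CPM in KO. The fatty acid transporter Slc27a1 and the hormone-sensitive lipase Lipe were also at −0.24. Slc25a20, which carries acylcarnitines across the inner membrane, was at −0.10.
Of the 15 auxiliary genes of mitochondrial oxidation, 12 were higher and 3 lower on average in KO, with a median of 0.04. Eci2, an isomerase of double bonds, was at 0.14 (standard error 0.11), and Hsd17b10, Echdc3 and Mut at 0.10, 0.13 and 0.10. The 20 further peroxisomal genes divided into 10 and 10. Among them was Pex11a, a gene of peroxisome division, at 0.22 (standard error 0.20).
Of the 5 ketone body genes, 4 were higher on average in KO, between 0.0084 for Acat1 and 0.11 for Oxct1, which restores acetoacetate to its coenzyme A form, and the remaining gene was at −0.0054. Of the 23 regulators, 9 were higher and 14 lower. Ppara, the receptor best known for control of these enzymes in liver, was at −0.13 (standard error 0.25), Ppard at −0.10 and Pparg at 0.06. Esrrg, an estrogen-related receptor, and Sirt5, a mitochondrial deacylase, had log2 fold changes of −0.48 (standard error 0.27) and −0.22 (standard error 0.16). Of the 11 genes of pyruvate dehydrogenase control and uncoupling, 5 were higher and 6 lower, and the carriers Slc25a14 and Slc25a27 were at 0.31 and −0.33 (standard errors 0.19 and 0.18). Of the 13 tested targets of PPAR receptors, 6 were higher and 7 lower, with a median of −0.02. Cidec and Plin5, both of lipid droplets, were at −0.31 and −0.23, and Angptl4, an inhibitor of lipoprotein lipase, and Fabp1, a fatty acid binding protein of liver and gut, at 0.22 and 0.19.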

How the data were processed

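Members and gene lists were chosen with earlier results of these data known. Per the labels and the methods of the study, 50 bp paired-end reads were aligned to mm10 with TopHat. Counting tool, annotation release and strand use remain not given in the sources used here. Deposited values are raw counts per transcript, for 31176 RefSeq and 33353 FANTOM3 entries, and the latter were not used here. Gene names turned into dates (49 entries) were restored by accession in 48. The RefSeq entry with the largest total stood for each of 23473 genes.

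KO was compared with WT over 14802 genes kept by filterByExpr (minimum count 10, minimum total 15) in edgeR 4.0.16 (R 4.3.3; limma 3.58.1 and DESeq2 1.42.0 for alternatives), with TMM scaling, quasi-likelihood tests and Benjamini-Hochberg adjusted p at a threshold of 0.05. The biological coefficient of variation was 0.129. The code was tested on simulated counts. Replicate pools of a genotype gave a chi-square of 7.60 to 117 per degree of freedom over genes, so none was a duplicate. The upper values, 107.5 and 117, were those of the pairs with WT pool 3, and the other pairs of a genotype gave 7.60 to 17.25. Across genotypes, WT pool 2 and KO pool 3 gave the lowest value of all pairs, 6.09, and WT pool 1 and KO pool 1 gave 7.14. Named were all members, the 8 with the smallest p with every pool, and up to 4 genes per pathway list, beside genes of known role chosen after their values were seen, such as Slc25a20 and the PPAR genes. Some pathway genes are not reported here. 3 pools against 3 allow no exact permutation p below 0.1. P-values measure the spread between pools of littermates. Gene coordinates and transcript lengths are from GENCODE M21 (GRCm38), promoters from RefSeq. Deviations between pools used log2(CPM + 0.5).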

Additional observations from a re-analysis of the deposited data

How the results depend on the processing

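No member and no pathway gene was called by edgeR or another tool under any of the 18 alternative fits, or at an adjusted p under 0.1. Over all genes tested, 1 was called in each, except without WT pool 1, where there were 2 (Tspo and Gdpd3), so the range over left-out pools was 1 to 2. Members without overlap numbered 0 to 4 when a pool was left out, and 0 under the other settings where a count could be made. The replicate block, the exact test, limma-voom and the test of each entry give none of their own. The median log2 fold change of the members stayed below 0, from −0.09 to −0.006. Without composition scaling the sign of 9 members, all close to 0, turned as the median of all genes moved to 0.04: Acaa1a 0.0015, Acad10 0.0115, Acads 0.0089, Acot2 0.0058, Acox3 0.0071, Decr1 0.0033, Etfa 0.0137, Etfb 0.0176 and Hadha 0.0149. Direction was kept in the other 375 comparisons of a member with a fit on all pools. Leaving out a pool turned the sign of 21 members at least once, and the cause was not tested. Their lowest and highest log2 fold changes were Acaa1a −0.0909 to 0.0305, Acaa1b −0.12 to 0.34, Acad10 −0.12 to 0.0591, Acad9 −0.13 to 0.0181, Acadm −0.12 to 0.019, Acads −0.15 to 0.0789, Acot2 −0.0952 to 0.0853, Acox3 −0.13 to 0.0389, Crat −0.16 to 0.007, Decr1 −0.17 to 0.0846, Decr2 −0.0615 to 0.14, Echs1 −0.0954 to 0.0064, Ehhadh −0.24 to 0.0204, Etfa −0.10 to 0.0495, Etfb −0.0449 to 0.0079, Etfdh −0.16 to 0.0173, Hadha −0.0866 to 0.0167, Hadhb −0.16 to 0.0126, Hsd17b4 −0.0177 to 0.0892, Pdk4 −0.99 to 0.15 and Ucp3 −0.32 to 0.12. The 11 members that kept their sign also moved: Cpt1b −1.51 to −0.58, Cpt1a −0.23 to −0.013, Cpt2 −0.14 to −0.0412, Acadl −0.21 to −0.0522, Acadvl −0.17 to −0.006, Acad11 −0.10 to −0.0175, Hadh −0.17 to −0.0161, Acaa2 −0.10 to −0.0099, Acadsb 0.021 to 0.20, Crot 0.0344 to 0.14 and Ucp2 0.0157 to 0.19. The labels say nothing of pairing, and deviations of pools with the same number correlated at 0.15, −0.25 and −0.29. The highest correlation across genotypes was 0.41, between WT pool 2 and KO pool 3, and its cause was not tested. With the replicate block, 1 gene was called in all and 0 of the members, whose median was −0.05, and Cpt1b was the member at an unadjusted p under 0.05. Counts ran from 31 to 6257 per member and pool.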
